A study of Mus musculus with 24 samples.

Results

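The genes described here are 33 genes of glycolysis and of the response to low oxygen, read out as RNA in organ of Corti (OC) explants, the sensory epithelium of the cochlea with its hair cells and supporting cells. They were taken by name from a table of 24454 genes: 4 transporters of glucose and lactate, 17 glycolytic enzymes, 3 enzymes that direct glycolytic flux, 8 targets of the hypoxia-inducible factor and Hif1a, the gene of its oxygen-regulated subunit. Gapdh was left out because its reads are shared with many pseudogenes. All 33 were counted in every library and passed the filter on low counts, with between 47 and 18946 counts per library.

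The explants came from C57BL/6N mice of both sexes at postnatal day 5 and were kept for 24 h in serum-containing medium before treatment. They then spent 6 or 24 h in drug-free medium (CTRL), in 50 µM gentamicin (GM), in 10 µM pioglitazone (PIO), or in the combination (PIO+GM). Gentamicin belongs to the aminoglycosides, antibiotics toxic to hair cells, and pioglitazone activates PPAR-γ, a lipid-sensing nuclear receptor. Each of the 8 groups had 3 libraries, each from 6 pooled explants, so p-values measure the spread between pools and not between animals. All groups, CTRL included, were therefore explants with a day of culture behind them, and no fresh tissue was compared. Library totals ranged from 7211357 to 15548856 counts on genes. Of 12 hair cell markers and 10 supporting cell markers, none was at 0 in all libraries, and their summed levels were 438 to 1023 and 2830 to 7632 CPM, counts scaled to library size.

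Glycolysis splits glucose into pyruvate and yields ATP without oxygen, and lactate dehydrogenase with the monocarboxylate transporters removes the end product as lactate. When oxygen falls, HIF-1α escapes hydroxylation and degradation, pairs with ARNT and binds short elements near its target genes, among them most glycolytic genes, Vegfa, Car9 and Bnip3. The cochlea depends on a high energy supply, and a cultured explant receives its oxygen by diffusion from the medium and not from blood.

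The core of the hypoxia response element is ACGTG or GCGTG, and both words were searched on either strand in the 250 bases before the start sites of RefSeq transcripts (build GRCm38.p6). The words can overlap when they lie on opposite strands. Of the 33 genes, 31 had a promoter entry. A core word was present in at least 1 promoter of 28 of them, or 90.3%, against 41.5% of all 27025 genes with an entry and 58.2% of the 12624 genes that passed the filter and had an entry. The 3 genes with an entry and no core word were Eno2, Gpi1 and Tpi1. A match is a run of letters and not a measured binding site. Upstream stretches are shown for the hypoxia target with the largest change over time (Car9), the target with most matches (Bnip3), the enzyme gene with the smallest p-value over time (Aldoc, for its first start site), a glycolytic gene with a pair of matches (Pgk1) and a highly expressed enzyme gene without a match (Tpi1). Each is written 5′ to 3′ on the strand of the gene, with the core words, as they read on that strand, in capitals.
Car9 (chr4:43506776-43507025, plus strand): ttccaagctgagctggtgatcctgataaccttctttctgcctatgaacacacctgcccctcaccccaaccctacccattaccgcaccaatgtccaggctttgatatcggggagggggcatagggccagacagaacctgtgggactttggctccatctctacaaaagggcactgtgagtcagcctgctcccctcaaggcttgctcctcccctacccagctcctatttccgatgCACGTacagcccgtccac
Bnip3 (chr7:138909507-138909756, minus strand): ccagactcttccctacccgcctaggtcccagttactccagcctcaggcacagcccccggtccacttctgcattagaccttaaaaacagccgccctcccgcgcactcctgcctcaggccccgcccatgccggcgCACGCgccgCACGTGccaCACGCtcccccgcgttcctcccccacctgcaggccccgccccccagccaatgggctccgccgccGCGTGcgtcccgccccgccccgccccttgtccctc
Aldoc (chr11:78322823-78323072, plus strand): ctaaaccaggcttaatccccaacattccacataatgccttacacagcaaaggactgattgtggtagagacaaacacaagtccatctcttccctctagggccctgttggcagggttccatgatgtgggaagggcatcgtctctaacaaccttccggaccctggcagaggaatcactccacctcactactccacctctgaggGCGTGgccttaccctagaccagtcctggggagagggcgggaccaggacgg
Pgk1 (chrX:106186850-106187099, plus strand): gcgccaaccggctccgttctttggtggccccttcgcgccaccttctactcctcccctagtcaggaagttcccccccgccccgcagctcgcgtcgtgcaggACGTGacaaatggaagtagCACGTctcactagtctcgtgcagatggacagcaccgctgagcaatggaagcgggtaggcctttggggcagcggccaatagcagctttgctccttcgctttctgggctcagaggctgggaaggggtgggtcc
Tpi1 (chr6:124814159-124814408, minus strand): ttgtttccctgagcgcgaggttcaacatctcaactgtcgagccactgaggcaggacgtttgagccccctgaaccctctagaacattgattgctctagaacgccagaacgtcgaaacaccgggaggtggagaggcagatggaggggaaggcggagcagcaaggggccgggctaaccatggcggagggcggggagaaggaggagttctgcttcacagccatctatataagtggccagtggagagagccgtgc
Bnip3 carried 5 matches in this window, Pgk1 2, and Car9 and Aldoc 1 each.

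Levels per gene length spanned a wide range. In RPKM, counts scaled to gene length and library size, medians over the 24 libraries ran from 6.24 for Pfkfb4 to 461 for Aldoa, against a median of 8.52 over all genes tested. The top of the order was held by enzymes from aldolase onwards. Aldoa, the main aldolase of most tissues, had 461 RPKM (range 215 to 660), Pkm, which encodes pyruvate kinase, 424 (218 to 603), Ldha, the lactate dehydrogenase subunit of glycolytic tissues, 424 (175 to 577) and Tpi1, triosephosphate isomerase, 296 (108 to 418). Within libraries Tpi1 was below each of the other 3 genes in 24 of 24, and Aldoa was above Pkm in 20 and above Ldha in 20, whereas Pkm was above Ldha in 13. Pgk1 (phosphoglycerate kinase) followed with 181 RPKM and Eno1 (enolase) with 152. Upstream enzymes were lower, with 115 RPKM for Gpi1 (glucose phosphate isomerase), 91.7 for Pfkl, 40.7 for Hk1 and 28.4 for Hk2. Pgam1 (phosphoglycerate mutase), although downstream of aldolase, stood at 47.2 RPKM, below Gpi1 and Pfkl.

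Among the hypoxia genes, Vegfa, the endothelial growth factor, was highest at 116 RPKM, followed by Bnip3, a mitophagy receptor, at 98.6 and Hif1a at 95.4. Ddit4, an inhibitor of mTORC1 signalling, had 61.9, Car9, a cell surface carbonic anhydrase, 53.8 and Ndrg1, a stress-induced gene, 51.0. Ankrd37 had 23.6, Egln3, a HIF prolyl hydroxylase, 23.5 and Adm, the vasodilator peptide adrenomedullin, 11.6. Car9 had the largest ratio of highest to lowest library among the 33 genes, 23.2, from 5.42 to 126 RPKM. The use of reads with several matches is not given in the sources used here, which bears on some levels: the share of 76-base windows of the transcript also present in other genes was 67.5% for Pgk1, 65.2% for Eno1, 45.7% for Bnip3 and 40.6% for Pgam1, and 12.0% to 19.0% for Pkm, Pfkp, Ldhb, Gpi1 and Ndrg1.

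**Figure D1:**
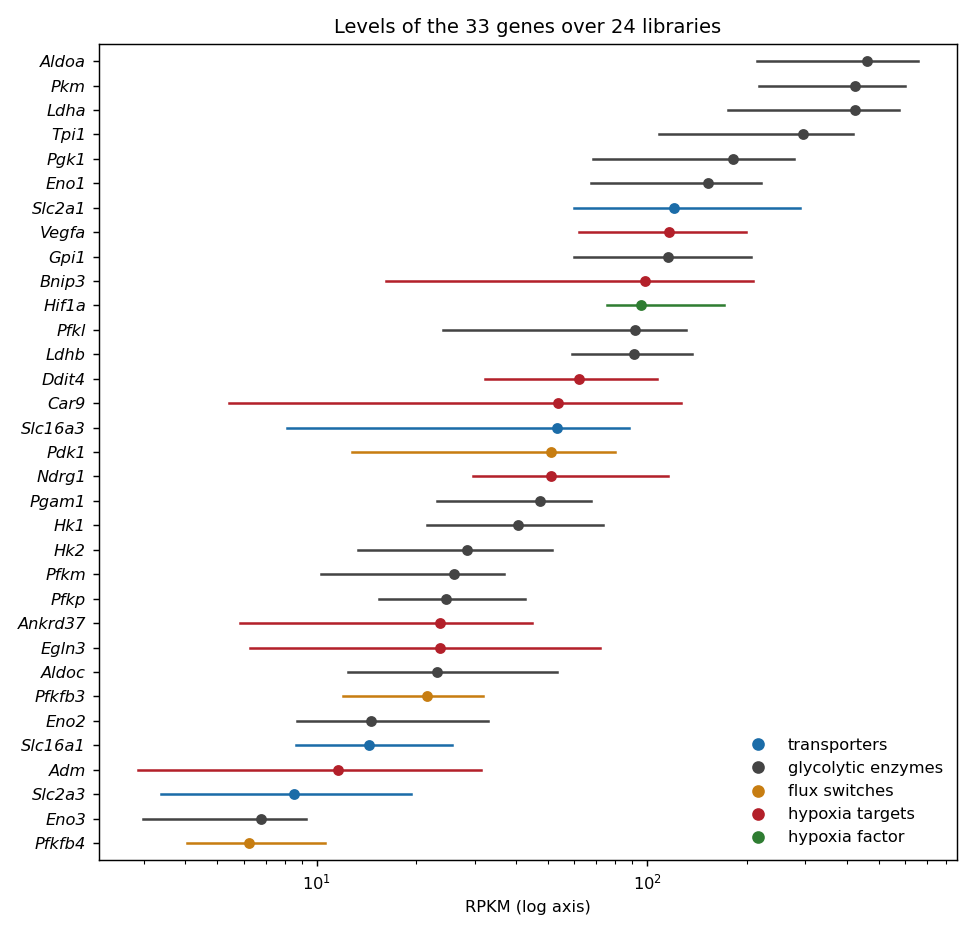
Median (point) and range (line) of RPKM over 24 libraries on a log axis for each of the 33 genes, coloured by role. Medians run from 6.24 RPKM for Pfkfb4 to 461 for Aldoa, and the longest line on this log axis is that of Car9.

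For most steps 1 isozyme held most of the RPKM. Slc2a1, the glucose transporter GLUT1, made up a median of 94.7% of the sum with Slc2a3 (GLUT3) at 6 h and 91.1% at 24 h. Aldoa made up 95.6% and 93.7% of the sum with Aldoc, and Ldha 79.7% and 79.8% of the sum with Ldhb, the subunit favoured in oxidative tissues. Hexokinase was shared, with Hk1 at 54.0% at 6 h and 63.5% at 24 h, and so was phosphofructokinase, where Pfkl held 61.8% and 64.9%. Within phosphofructokinase, Pfkm, the muscle-type subunit, had a median of 14.0% at 6 h and 20.1% at 24 h, while Pfkp, the platelet type, had 25.5% and 15.2%. The lactate exporter Slc16a3 (MCT4) had a median of 60.1% of the sum with Slc16a1 (MCT1) at 6 h, with a range of 33.3% to 80.8%, and 84.2% at 24 h, with a range of 80.4% to 87.5%. Enolase was mostly Eno1, at 82.7% and 89.2%, with the neuronal Eno2 at 13.8% and 7.13% and the muscle-type Eno3 at 3.48% and 4.20%. Pfkfb3, which makes the activator of phosphofructokinase, stood at 76.7% and 74.7% of the sum with Pfkfb4.

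Time in culture was the comparison with most calls. Over the 4 treatments, 21 of the 33 genes differed between 24 and 6 h (adjusted p under 0.05, edgeR's quasi-likelihood test), 16 higher and 5 lower at 24 h. Among all 16317 genes tested 62.6% were called, 31.9% higher and 30.7% lower, so the share of the 33 genes that changed was near the background, while 16 of 33 is 48.5% higher and 5 of 33 is 15.2% lower. The median log2 fold change of the 33 genes was 0.46, against 0.02 over all genes. Genes rich in GC moved with time as well: the median was 0.18 among genes with a transcript GC content above 53.3% and -0.14 among those below 47%. The 33 genes have a transcript GC content of 41.3% to 57.9%, and with the GC trend removed their median was 0.33 and 19 were called, 14 higher and 5 lower, where 66.1% of all genes were called, 31.4% higher and 34.7% lower.

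Car9 showed the largest change. Its log2 CPM at 6 h was 5.93, 4.58 and 5.70 in CTRL, 5.80, 3.43 and 6.77 in GM, 4.20, 3.94 and 6.41 in PIO and 3.98, 4.12 and 5.21 in PIO+GM. At 24 h it was 7.45, 6.68 and 7.14 in CTRL, 7.95, 7.43 and 6.86 in GM, 7.07, 7.56 and 7.09 in PIO and 7.03, 7.78 and 7.15 in PIO+GM. All 24 h libraries but 1 lay above the highest 6 h library, replicate 3 of GM. The log2 fold change was 2.00 ± 0.33 (SE, adjusted p = 2.74e-05), a 4-fold difference.

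Aldoc, the brain-type aldolase, and Pfkm were the genes of the 33 whose 12 libraries at 24 h all lay above the 12 at 6 h, as did or did the reverse 12.4% of all genes tested. Aldoc had log2 CPM of 5.16 to 5.92 (median 5.36) at 6 h and 6.18 to 7.26 (median 6.58) at 24 h, a change of 1.26 ± 0.10 (SE, adjusted p = 5.37e-09). Pfkm had 4.98 to 6.17 (median 5.52) at 6 h and 6.44 to 6.81 (median 6.62) at 24 h, a change of 1.07 ± 0.11 (SE, adjusted p = 7.73e-08). Both also rose in each of the 4 treatments taken alone.

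**Figure D2:**
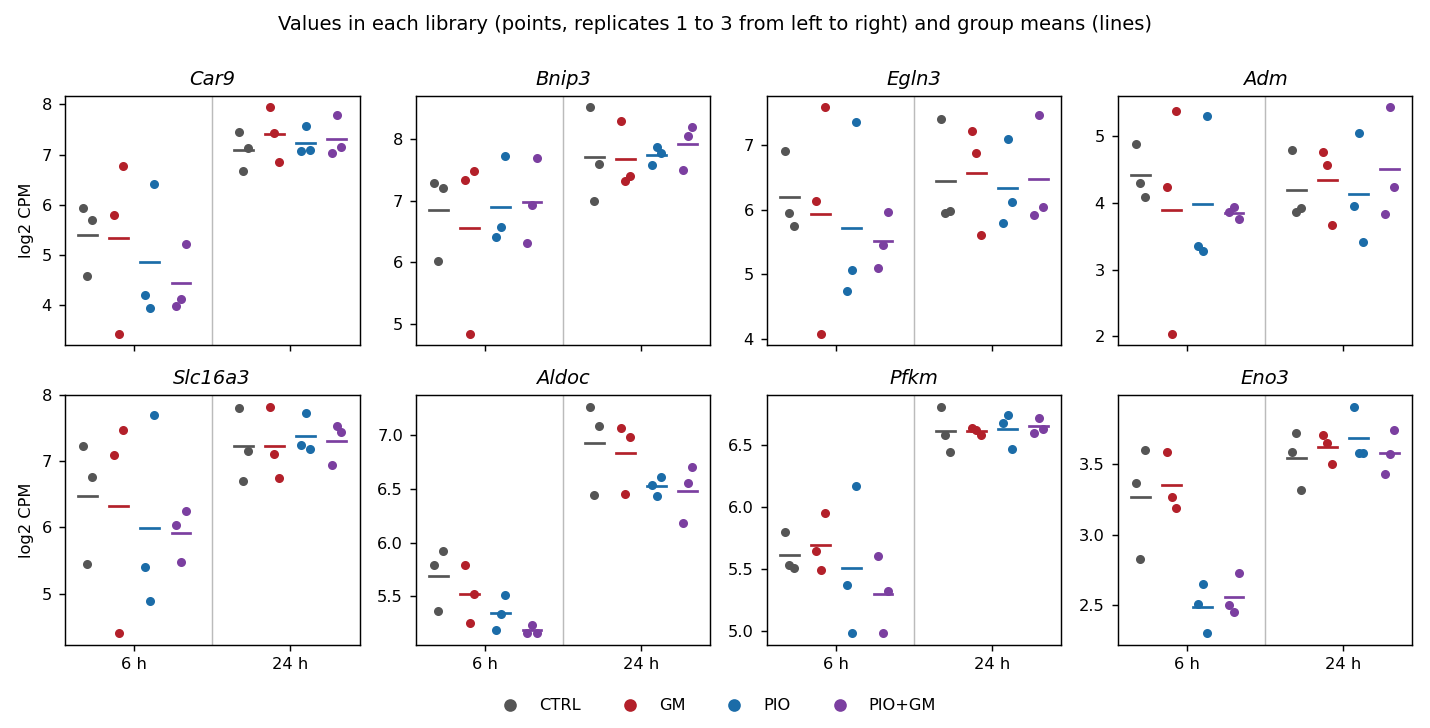
log2 CPM of 8 genes in every library (points, replicates from left to right) and group means (lines) at 6 and 24 h, coloured by treatment. Aldoc and Pfkm at 24 h lie above all their 6 h values, while Car9, Bnip3, Egln3, Adm and Slc16a3 spread widely within groups at 6 h.

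Of the 17 enzymes, 12 rose with time, 2 fell and 3 did not pass the test, or 70.6% higher and 11.8% lower, against 31.9% and 30.7% of all genes. Pfkl rose by 0.69 ± 0.22 on the log2 scale (adjusted p = 0.0114), Eno3 by 0.70 ± 0.10 (3.46e-06), Aldoa by 0.60 ± 0.16 (0.00243), Pkm by 0.58 ± 0.12 (0.000275) and Pgk1 by 0.59 ± 0.16 (0.00353). Smaller rises were seen for Tpi1 (0.54, adjusted p = 0.0114), Ldhb (0.51, 0.000228), Ldha (0.48, 0.0186), Eno1 (0.48, 0.0103) and Pgam1 (0.42, 0.0294). The calls lay at steps from phosphofructokinase to lactate dehydrogenase, and those of Eno1 and Pgam1 were lost with the GC trend removed. Eno2 fell by 0.66 ± 0.17 (adjusted p = 0.00222) and Hk2, the inducible hexokinase, by 0.55 ± 0.19 (0.0182). Gpi1, Hk1 and Pfkp had log2 fold changes of 0.41, -0.15 and -0.08 that did not pass.

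The transporters split. Slc16a3 rose by 0.85 ± 0.32 (adjusted p = 0.0294), from log2 CPM of 4.40 to 7.70 (median 6.15) at 6 h to 6.71 to 7.83 (median 7.22) at 24 h. Slc16a1 fell by 0.69 ± 0.11 (adjusted p = 2.04e-05), from 5.96 to 6.83 (median 6.29) to 5.27 to 6.05 (median 5.61). Slc2a1 fell by 0.59 ± 0.23 (adjusted p = 0.034), and Slc2a3 had a change of 0.26 ± 0.29 that did not pass. The call of Slc2a1 was lost without replicate 3 of PIO at 6 h and with the replicate number as a block in the fit. Of the flux enzymes, Pdk1, a kinase that inactivates pyruvate dehydrogenase, rose by 0.96 ± 0.18 (adjusted p = 0.00013), while Pfkfb3 and Pfkfb4 had -0.29 and -0.08.

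Of the 8 hypoxia targets, Car9 and Bnip3 rose and the other 6 did not pass, so that 25% were called, all higher, against 62.6% of all genes called and 31.9% higher. Bnip3 had log2 CPM of 4.84 to 7.73 (median 7.07) at 6 h and 7.00 to 8.52 (median 7.68) at 24 h, a change of 0.82 ± 0.27 (SE, adjusted p = 0.0126), and the ranges overlapped. Ankrd37 had a change of 0.54 (adjusted p = 0.0718), Egln3 0.46, Ddit4 0.25, Adm 0.14, Ndrg1 -0.11 and Vegfa -0.28. Hif1a fell by 0.36 ± 0.10 (adjusted p = 0.00541), with log2 CPM of 8.69 to 9.72 (median 9.06) at 6 h and 8.55 to 9.01 (median 8.77) at 24 h. With the GC trend removed, Hif1a no longer passed and Pfkfb4 did.

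**Figure D3:**
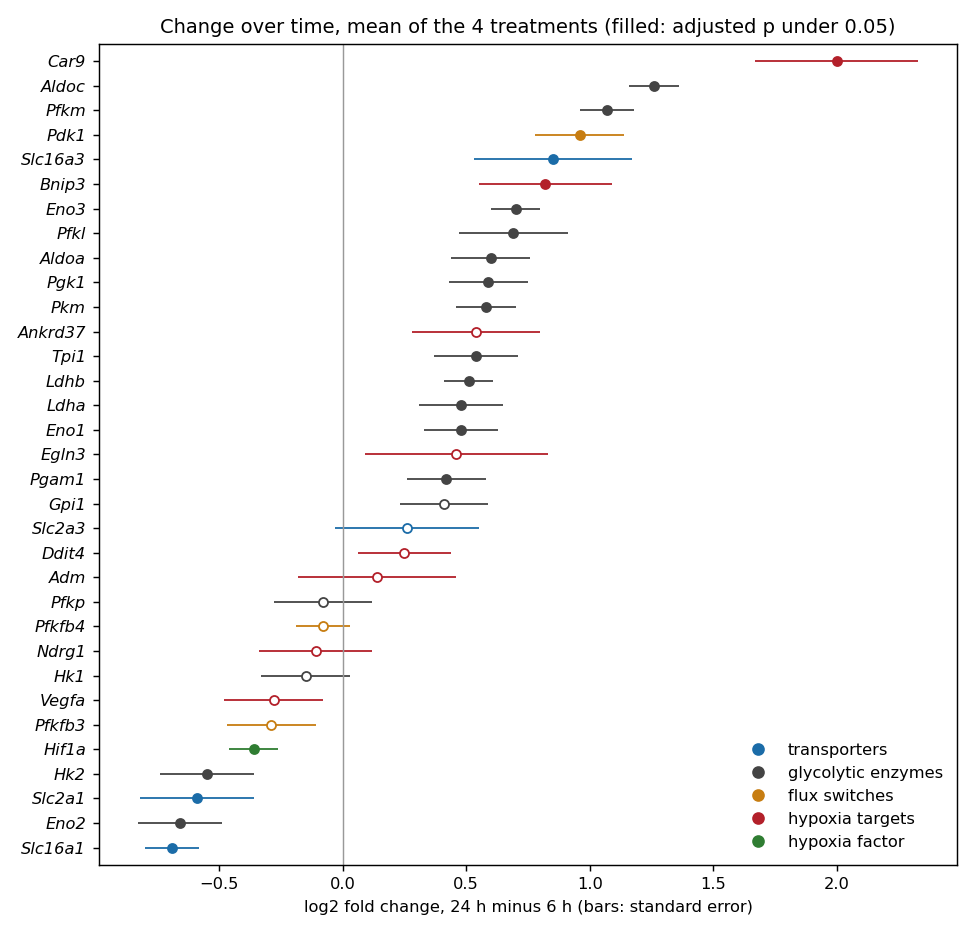
log2 fold change between 24 and 6 h (points, with bars of 1 standard error) over the 4 treatments for the 33 genes, coloured by role, filled where the adjusted p is under 0.05. Car9 is highest at 2.00, 16 filled points lie above 0 and 5 below.

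Within single treatments fewer genes passed. In CTRL 5 of 33 did (28% of all genes; 4 higher, against 14.8%, and 1 lower, against 13.2%): Aldoc (1.26), Pfkm (1.00), Pdk1 (1.01) and Ldhb (0.68) rose and Slc16a1 fell by 0.80. In GM 5 did (24.2%; 4 higher, against 12.5%, and 1 lower, against 11.7%): Aldoc (1.32), Pdk1 (1.02), Pfkm (0.91) and Ldhb (0.62) rose and Eno2 fell by 0.95. In PIO 5 did (29%; 4 higher, against 13.2%, and 1 lower, against 15.8%): Car9 (1.94), Eno3 (1.23), Aldoc (1.17) and Pfkm (1.04) rose and Slc16a1 fell by 0.63. In PIO+GM 7 did (34.6%; 6 higher, against 17.6%, and 1 lower, against 17%): Car9 (2.84), Pfkm (1.33), Aldoc (1.30), Eno3 (1.05), Aldoa (1.00) and Pkm (0.81) rose and Slc16a1 fell by 0.78. In this fit, with all libraries, the share of the 33 genes called was below that of all genes in all 4 treatments.

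The median change of the 33 genes was 0.25 in CTRL, 0.24 in GM, 0.47 in PIO and 0.69 in PIO+GM. The medians over all genes with a GC content above 53.3% and below 47% lay further apart in PIO and PIO+GM than in CTRL and GM, at 0.07 and 0 in CTRL, 0.07 and -0.03 in GM, 0.24 and -0.23 in PIO and 0.34 and -0.26 in PIO+GM. With the GC trend removed the medians of the 33 genes were 0.19, 0.20, 0.37 and 0.57. No gene of the 33, and 0% of all genes, differed between a treatment and CTRL in its change over time (interaction terms in edgeR; DESeq2 called 0 of the 33). At an unadjusted p under 0.05 in edgeR there were 0 of the 33 for GM, 1 for PIO and 1 for PIO+GM. Among all 16317 genes there were 125, 714 and 978. The smallest p was that of Eno3, with a difference of 0.98 ± 0.27 for PIO (adjusted p = 0.898) and 0.79 ± 0.27 for PIO+GM (adjusted p = 0.736). A single library weighed on the counts within treatments. Without replicate 3 of PIO at 6 h, 15 of the 33 genes rose and none fell in PIO, with a median of 0.98, where 36.6% of all genes were called and 16.8% were higher. Without replicate 2 of GM at 6 h, 3 rose and none fell in GM, with a median of -0.12, where 13.3% of all genes were called and 6.49% were higher.

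These libraries belong to a spread between pools that was wide for the hypoxia targets at 6 h. The pooled standard deviation within groups had a median of 0.53 over the 33 genes at 6 h and 0.39 at 24 h on the log2 CPM scale, against 0.33 and 0.20 over all genes tested. For the 8 hypoxia targets the medians were 0.92 and 0.57. Slc16a3 (1.23), Egln3 (1.20), Car9 (1.20), Adm (1.05) and Bnip3 (0.96) had the widest spread at 6 h, and Aldoc (0.22), Eno3 (0.25), Ldhb (0.28) and Slc16a1 (0.31) the narrowest. The standard deviation was larger at 6 than at 24 h in 26 of the 33 genes and in 76.5% of all genes.

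The spread ran in the same direction for most of the genes. Replicate 2 of GM at 6 h was the lowest of its group in 28 of 33 genes, as it was in 32.4% of all genes, and its median difference from the mean of the other two was -1.24 on the log2 scale, against 0.01 over all genes. Its mean log2 CPM over the 8 hypoxia targets was 4.80, the lowest of the 24 libraries, against 6.48 and 7.22 in replicates 1 and 3. Replicate 3 of PIO at 6 h was the highest of its group in 29 of 33 genes (35.9% of all genes), with a mean over the hypoxia targets of 7.07 against 5.41 and 5.48. Replicate 3 of GM and replicate 1 of CTRL at 6 h were highest in 27 and 25 genes (39.1% and 29.9% of all genes). The 3 PIO+GM libraries at 6 h lay close together, with means of 5.69, 5.81 and 6.00.

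At 24 h such libraries were found too. Replicate 1 was highest in 30 of 33 genes in CTRL (26.7% of all genes) and in 30 in GM (26.1%), and lowest in 30 in PIO+GM (29.5%). Replicate 2 was highest in 25 in PIO (39.7% of all genes) and in 22 in PIO+GM (36.7%). The means over the hypoxia targets ran from 6.04 to 7.37 at 24 h and from 4.80 to 7.22 at 6 h. In replicate 2 of GM at 6 h, 5 of the 33 genes were not the lowest of their group. Eno2 (log2 CPM of 6.53 against a mean of 5.93 in the other two), Ldhb (6.83 against 6.52) and Pfkfb4 (5.17 against 4.66) were highest there, and Eno3 and Hif1a lay between the other two. Of the genes that were lowest, Slc16a1, Pfkm and Aldoc were below the mean of the other two by less than 0.5, at -0.14, -0.30 and -0.40. Eno2 did spread elsewhere, with 6.42, 5.56 and 4.78 in PIO+GM at 6 h. The total count of replicate 2 of GM at 6 h was 11656327, within the range of the others.

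Markers of other cell types also differed between these libraries. Replicate 2 of GM at 6 h had the highest summed level of the 5 Schwann cell markers of all libraries, 2567 CPM against 1729 and 938 in replicates 1 and 3, and a neuronal sum of 279 CPM against 221 and 96.6. Replicate 3 of PIO at 6 h had the lowest Schwann cell and neuronal sums of its group, 460 and 49.1 CPM, against 486 and 58.2 in replicate 1 and 1578 and 227 in replicate 2. Replicate 3 of GM and of PIO at 6 h, both high in most of the 33 genes, also had the lowest hair cell (489 and 486 CPM) and supporting cell sums (3463 and 3817 CPM) of their groups. They had the highest erythroid sums, 476 CPM against 178 and 222 in GM and 540 against 248 and 325 in PIO, and the highest endothelial sums, 403 against 208 and 248 and 285 against 190 and 200. Their mesenchymal (3741 and 3319 CPM) and macrophage sums (90.1 and 81.7 CPM) were the highest of their groups too. In CTRL at 6 h the order differed. Replicate 1, highest in 25 of the 33 genes, had the lowest erythroid (264 CPM) and macrophage sums (46.8 CPM). Replicate 2, lowest in 20 genes (37.5% of all genes), had the lowest hair cell sum (438 CPM). It had the highest erythroid (654), endothelial (416), macrophage (103) and mesenchymal sums (4027 CPM). In PIO+GM at 6 h the Schwann cell sums were 2404, 1190 and 359 CPM while the means over the hypoxia targets lay close together. At 24 h replicate 1 had the highest Schwann cell sum both in GM (791 CPM), where it was high in the 33 genes, and in PIO+GM (842 CPM), where it was low. Endothelial sums at 24 h were the lowest of their groups in replicate 1 of CTRL and of GM (253 and 256 CPM). They were the highest in replicate 2 of PIO and of PIO+GM (289 and 276 CPM). All of these libraries were high in most of the 33 genes. The part of these cell types in the spread of the 33 genes was not tested.

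**Figure D4:**
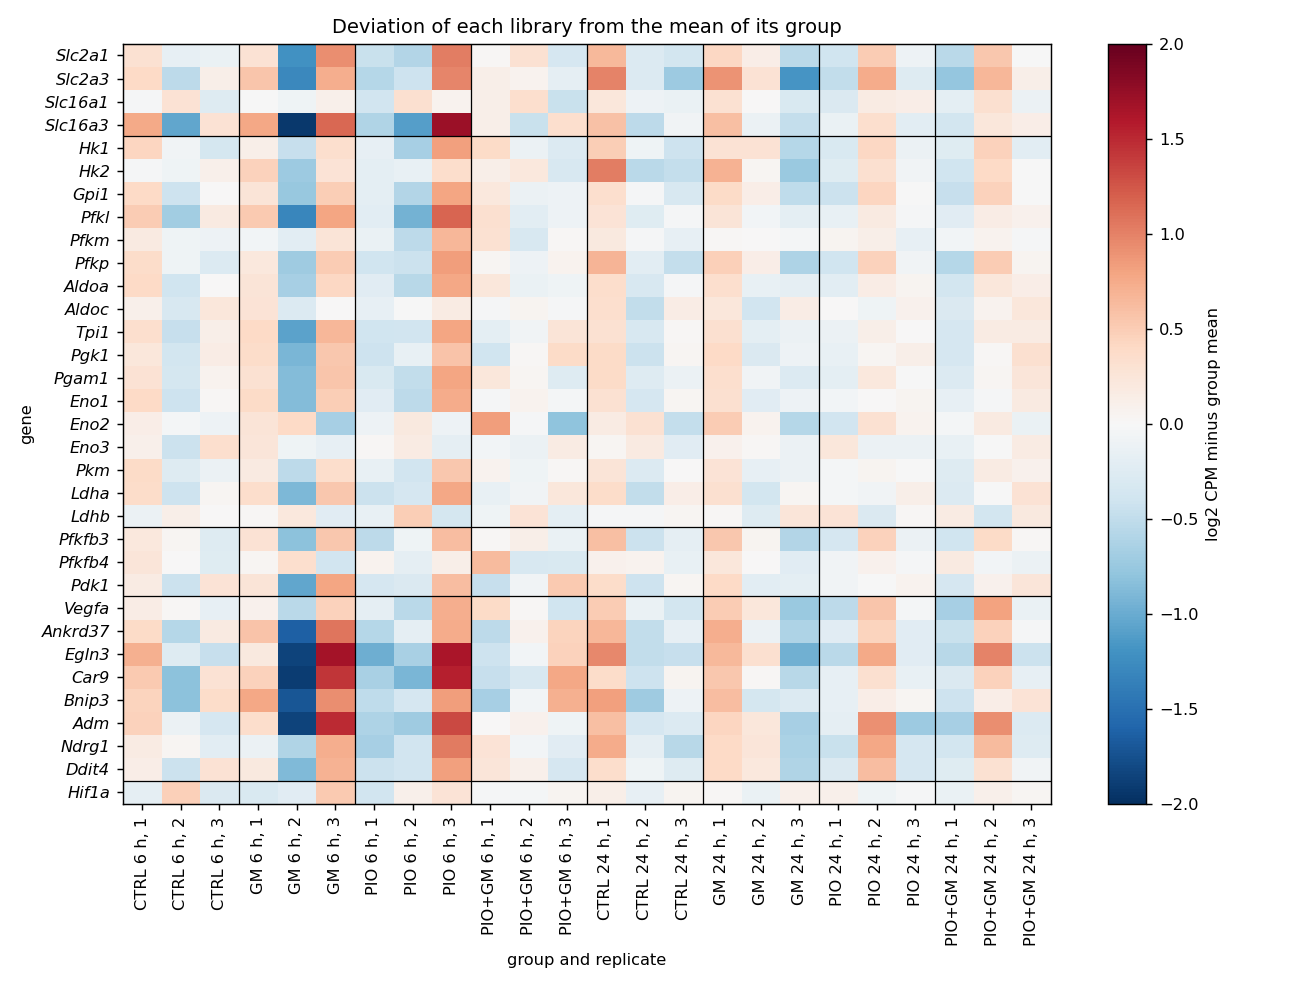
log2 CPM of each of the 33 genes (rows, by role) in each of the 24 libraries (columns, by group and replicate) minus the mean of its group, on a colour scale from -2 to 2. Replicate 2 of GM at 6 h is blue and replicate 3 of GM and of PIO at 6 h are red in most rows, most strongly among the hypoxia targets.

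With gentamicin alone no change of the 33 genes passed the test. Against CTRL there was no call at 6 h (0% of all genes) or at 24 h (0.0123% of all genes) in edgeR, and 0 also with DESeq2. None of the 33 had an unadjusted p under 0.05 in edgeR, against 243 of all 16317 genes at 6 h and 272 at 24 h. The medians were 0.04 and 0.03. The smallest p-values at 6 h were those of Hk2 (-0.48 ± 0.39) and Hif1a (-0.24 ± 0.21), and at 24 h of Hk2 (-0.26 ± 0.39) and Ldhb (-0.12 ± 0.20), all with an adjusted p of 1. The median at 6 h was 0.33 without replicate 2 of GM. For Car9 at 6 h the log2 fold change was 0.36 with a standard error of 0.63, and 0.85 with a standard error of 0.57 without replicate 2 of GM, so a change of this gene within that error was not detectable with these pools.

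With pioglitazone at 6 h the gene called was Eno3, the muscle-type enolase, with p-values near the threshold. Its log2 CPM at 6 h was 3.37, 2.83 and 3.60 in CTRL, 3.59, 3.27 and 3.19 in GM, 2.51, 2.65 and 2.30 in PIO and 2.50, 2.45 and 2.73 in PIO+GM. All 6 libraries with pioglitazone lay below the 6 without, the 1 gene of the 33 without overlap between these libraries, as were 4.12% of all genes. In PIO+GM against GM it fell by 0.82 ± 0.19 (SE, adjusted p = 0.0427) and in PIO+GM against CTRL by 0.76 ± 0.19 (adjusted p = 0.0433), and PIO against CTRL gave -0.83 ± 0.19, which did not pass (adjusted p = 0.0667). These comparisons share libraries. At 24 h the group means were 3.54 in CTRL, 3.62 in GM, 3.69 in PIO and 3.58 in PIO+GM, and no difference passed. Eno3 (chr11:70653125-70662513) had the lowest mean log2 CPM of the 33 genes, with 48 to 232 counts per library, and with the GC trend removed its changes at 6 h were -0.55 and -0.51 for PIO+GM and did not pass (adjusted p = 0.228 and 0.244). Both calls also ended without a filter (adjusted p = 0.0654 and 0.0683), by library size alone (0.0547 and 0.0569) and with the compared groups alone (0.27 and 0.37). They held with DESeq2 (adjusted p = 0.00956 and 0.0135), with RLE size factors (0.0466 and 0.0467) and with a minimum of 10 counts in every library (0.0373 and 0.0385), and DESeq2 also called Eno3 in PIO against CTRL (adjusted p = 0.0089). When each of the 24 libraries was left out in turn, the log2 fold change stayed between -0.90 and -0.69 against GM and between -0.95 and -0.58 against CTRL, and each call was lost in 18 of 24 fits, with adjusted p up to 0.223 and 0.174, both without replicate 2 of PIO+GM at 6 h. Both calls held without replicate 1 of PIO+GM, 2 of CTRL, 2 of PIO or 3 of PIO at 6 h or replicate 2 of CTRL at 24 h, and 1 of them without replicate 3 of CTRL (against GM) or 3 of GM (against CTRL) at 6 h.

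Eno3 was the 1 gene of 33 called in PIO+GM against GM at 6 h (1.32% of all genes, 0.723% lower) and the 1 called in PIO+GM against CTRL at 6 h (2.64%, 1.04% lower). In PIO against CTRL at 6 h none passed (0.337% of all genes). At an unadjusted p under 0.05 in edgeR there were 2 of the 33 and 2479 of all 16317 genes. DESeq2 called 2 of the 33, Eno3 among them, and its share of all genes is not given here. In edgeR Pfkfb4 had the next smallest p after Eno3 in this comparison, with -0.80 ± 0.22 (adjusted p = 0.11). The medians of the 33 genes at 6 h were -0.19 for PIO against CTRL, -0.44 for PIO+GM against GM and -0.41 for PIO+GM against CTRL, with 29, 26 and 28 genes below 0. These medians moved with single libraries and with GC. For PIO against CTRL the median was -0.74 without replicate 3 of PIO, and for PIO+GM against GM it was -0.70 without replicate 2 of GM and -0.24 with the GC trend removed, while before that removal the median was -0.36 over all genes with a GC content above 53.3% and 0.28 over those below 47%. Medians over the marker lists of other cell types differed from 0 in both directions in the same comparisons. No marker was called in them apart from Lhx3 of hair cells in PIO+GM against CTRL. In PIO against CTRL at 6 h the median log2 fold change was -0.69 over the Schwann cell markers, -0.63 over the neuronal and -0.52 over the endothelial markers, with 0 of 5, 0 of 5 and 0 of 6 above 0. It was -0.27 over the erythroid, -0.19 over the supporting cell, -0.14 over the macrophage, -0.08 over the hair cell and 0.18 over the mesenchymal markers. In PIO+GM against GM it was -0.41 over the Schwann cell markers and -0.27 over the neuronal markers, with 0 of 5 above 0 in each, and -0.37 over the hair cell markers. There it was -0.24 over the supporting cell, -0.21 over the macrophage, -0.10 over the endothelial, 0.02 over the mesenchymal and 0.23 over the erythroid markers. In PIO+GM against CTRL it was -0.03 and -0.08 over the Schwann cell and neuronal markers, -0.51 over the erythroid, -0.40 over the supporting cell and -0.28 over the endothelial markers. There it was -0.27 over the hair cell, -0.14 over the macrophage and 0.05 over the mesenchymal markers. The part of these cell types in the medians of the 33 genes was not tested.

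At 24 h no gene of the 33 passed in PIO against CTRL (0.153% of all genes), in PIO+GM against GM (0.11%) or in PIO+GM against CTRL (0.478%), by edgeR or by DESeq2. At an unadjusted p under 0.05 in edgeR there were 1, 0 and 1 of the 33, against 1621, 1219 and 1476 of all 16317 genes. The medians were 0.05, 0.04 and 0.10. Aldoc had the smallest p in each, with -0.44 ± 0.20 (adjusted p = 0.468), -0.36 ± 0.20 (adjusted p = 0.745) and -0.48 ± 0.20 (adjusted p = 0.451). The effect of pioglitazone did not differ detectably with and without gentamicin in any of the 33 genes, or in any other gene (0% of all genes at 6 h and 0% at 24 h; 0 of the 33 with DESeq2). At an unadjusted p under 0.05 in edgeR there were 0 of the 33, against 293 of all 16317 genes at 6 h and 197 at 24 h. The smallest p belonged to Car9 at 6 h (-1.15 ± 0.90) and Hif1a at 24 h (0.26 ± 0.29), both with an adjusted p of 1.

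**Figure D5:**
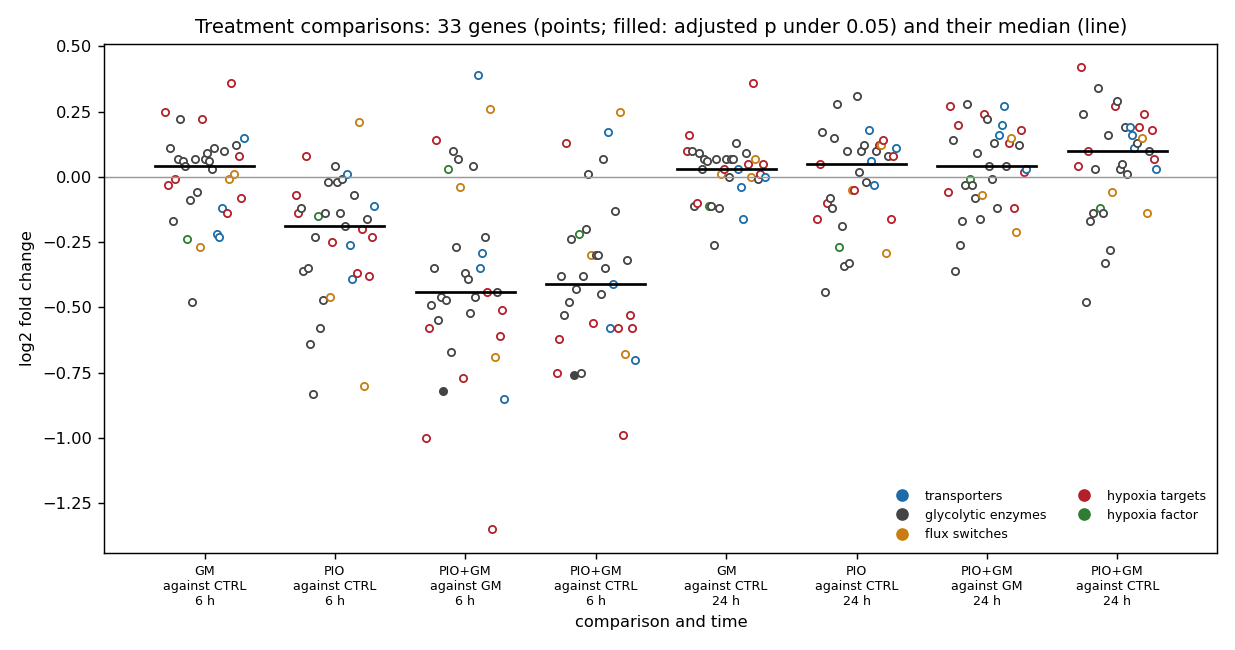
log2 fold changes of the 33 genes (points, coloured by role, filled where the adjusted p is under 0.05) and their median (line) in 4 treatment comparisons at 6 and 24 h. At 6 h the medians of the comparisons with pioglitazone lie at -0.19, -0.44 and -0.41, at 24 h all medians lie within 0.10 of 0, and the filled points are Eno3.

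Further genes of the same pathways changed with time about as often as all genes did. Of 28 further genes of the HIF pathway 13 rose and 6 fell, or 67.9%, and of 26 tested further genes of glucose metabolism, of 28 listed, 9 rose and 9 fell, or 69.2%, against 62.6% of all genes. The smallest p-values among those that rose were those of Txnip (2.05 ± 0.11), an inhibitor of thioredoxin and of glucose uptake, Slc16a7 (1.14 ± 0.09), the transporter MCT2, Pdk2 (0.93 ± 0.12) and Slc2a4 (0.83 ± 0.13), the insulin-responsive transporter GLUT4. Among those that fell were Pck2 (-1.61 ± 0.12), the mitochondrial PEP carboxykinase, Tigar (-0.77 ± 0.09), a fructose bisphosphatase, and Pdp1 (-1.77 ± 0.21), the phosphatase that reactivates pyruvate dehydrogenase. Txnip, Slc16a7, Pck2 and Tigar were called in the same direction in each treatment alone. Within single treatments the share of the 54 genes called was also near that of all genes, at 24.1% in CTRL (against 28%), 22.2% in GM (24.2%), 29.6% in PIO (29%) and 35.2% in PIO+GM (34.6%). In CTRL 5 genes of these lists rose, with Slc2a4 (0.89) and Ppp1r3c (1.45), and 8 fell, with Pdp1 (adjusted p = 0.00199). In GM 5 rose, with Slc2a4 (0.94) and Pdk2 (0.77), and 7 fell, with Dlat (-0.38), a subunit of pyruvate dehydrogenase. In PIO 5 rose, with Angpt2 (0.82) and Hif3a (1.22), a HIF subunit, and 11 fell, with Stc2 (-1.64). In PIO+GM 10 rose, with Pdk2 (1.46) and Slc2a4 (1.22), and 9 fell, with Pdp1 (-1.74). Pdk4, a PPAR-responsive pyruvate dehydrogenase kinase, was the 1 gene of these lists called between treatments, higher by 1.56 ± 0.32 in PIO+GM than in GM at 6 h (adjusted p = 0.033) and by 1.47 ± 0.33 in PIO+GM than in CTRL at 24 h (adjusted p = 0.0469).

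Markers of other cell types moved with time beside these genes. All 5 erythroid markers fell, with summed levels of 178 to 654 CPM at 6 h and 77.5 to 241 at 24 h, and so did all 5 neuronal markers (49.1 to 280 and 29.6 to 173 CPM) and 3 of 5 Schwann cell markers (359 to 2567 and 333 to 842 CPM). Of the hair cell markers 5 of 12 rose and 1 fell, of the supporting cell markers 5 of 10 rose, of the endothelial markers 1 of 6 rose and 1 fell, of the macrophage markers 3 of 6 rose, and of the mesenchymal markers 2 of 6 rose and 1 fell. Against 62.6% of all genes, 100% of the erythroid and of the neuronal markers were called. The share was 60% for Schwann cell, 33.3% for endothelial and 50% for hair cell, supporting cell, macrophage and mesenchymal markers, all below that of all genes. In these bulk libraries fewer cells of a type and less RNA per cell cannot be told apart, and the part of these cell types in the changes of the 33 genes was not tested. Between treatments 1 marker was called, Lhx3 of hair cells, which fell by 2.38 on the log2 scale in PIO+GM against CTRL at 6 h.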

How the data were processed

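Total RNA of OC explants was sequenced as 76-base single reads. The authors mapped the reads with STAR to mm10 (GRCm38), per the labels, and counted with QuasR the reads starting in any RefSeq exon of a gene. The deposited values are raw counts, with a gene length. Use of strand and of reads with several matches is not given in the sources used here.

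Of 24454 Entrez identifiers, 24374 had a symbol. Counts were fitted in R 4.3.3 with edgeR 4.0.16 (TMM, filterByExpr, quasi-likelihood test) and limma 3.58.1, with 1 mean per group over 24 libraries, and p-values were adjusted (Benjamini-Hochberg) over 16317 genes with a threshold of 0.05. Standard errors were derived from the F statistic. DESeq2 1.42.0 was an alternative. log2 CPM used a prior count of 2, and RPKM the deposited length. At these totals 3 counts correspond to 0.193 to 0.416 CPM, counting error only. The test was checked on simulated data with the same dispersion for every gene and few genes changed, unlike these data.

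The 33 genes and all lists were chosen with earlier results of these data known. All 33 are named, with values for those past the threshold or, where none passed, at most the 2 with the smallest p, and of the other pathway genes past the threshold at most 4 per direction and comparison with the smallest p. The result of 1 gene of these lists is not reported here. Alternatives were a replicate block, other scalings and filters, the compared groups alone, each library left out and, added after seeing the data, removal of a trend with transcript GC content. Promoters and positions come from RefSeq GRCm38.p6, and shared windows from GENCODE transcripts.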

Additional observations from a re-analysis of the deposited data

How the results depend on the processing

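The fold changes of the 45 calls of single genes over time or between treatments kept their direction under every alternative tried. Over the 4 treatments 16 of the 21 genes called stayed past the threshold in every alternative, and the count of genes called ranged from 19 to 22 when each library was left out in turn. Those ranges were 3 to 6 in CTRL, 2 to 6 in GM, 3 to 15 in PIO and 4 to 11 in PIO+GM, and for treatments at 6 h 0 to 2 for PIO against CTRL, 0 to 3 for PIO+GM against GM and 0 to 2 for PIO+GM against CTRL. The libraries behind the largest shifts were replicate 3 of PIO at 6 h, whose removal gave 15 genes in PIO (36.6% of all genes) and 11 in PIO+GM, and replicate 1 of PIO+GM at 6 h, whose removal gave 3 and 2 genes in PIO+GM against GM and CTRL. Apart from the count in PIO, these counts are given without the share of all genes and have no background here. Of the other alternatives, no filter gave 3 genes over time in GM, DESeq2 8 in PIO, and the compared groups alone 2 in PIO and 16 in PIO+GM. Shares of all genes are not given for these fits, so their counts cannot be read against a background. Calls at 6 h were the least stable. PIO against CTRL had 2 genes with DESeq2 and 1 with the GC trend removed together with the replicate block. PIO+GM against GM and PIO+GM against CTRL each had 0 genes by library size alone, without a filter, with the GC trend removed with or without the block, and with the compared groups alone. The cause was not tested. Same-numbered libraries did not all deviate together (mean correlation of their deviations 0.113 at 6 h, with 9 of 18 pairs over 0.1, and 0.38 at 24 h, with 15 of 18, against -0.055 and -0.182 for different numbers). The deviations within a group sum to 0, so the values for different numbers are tied to those for the same number. Since not every pair was over 0.1, the numbers were not taken as pairs, although 8 of 12 libraries at 6 h and 8 of 12 at 24 h correlated best with their own number. With the replicate block as an alternative, 20 genes changed over the 4 treatments (63.4% of all genes) and 7, 7, 7 and 9 in CTRL, GM, PIO and PIO+GM (30%, 26.6%, 30.8% and 36.2% of all genes). With the block Eno3 and Pfkfb4, 2 genes, were called at 6 h in PIO against CTRL (adjusted p = 0.0446 and 0.0479 in edgeR; 2.27% of all genes), PIO+GM against GM (0.022 and 0.0284; 12.2%) and PIO+GM against CTRL (0.0303 and 0.0342; 9.46%). Counts between treatments at 24 h, for GM against CTRL, and for differences between effects were 0 in every alternative. Among all genes at 6 h, the block gave 1990 calls for PIO+GM against GM, against 216 without it, and the compared groups alone gave 0.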
